A study of Homo sapiens with 16 samples.

Results

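The unfolded protein response and endoplasmic reticulum (ER) folding genes examined here are a list of 40 genes, described across 16 RNA-seq libraries. They were chosen by symbol, with earlier results of these data known. Of the 40, 39 were found in the expression table under the listed symbol and 1, ERO1LB, under its newer symbol ERO1B, out of 26475 genes in all. 39 passed the filter on low counts. DERL3, a derlin of ER-associated degradation, did not, with 0 to 4 estimated counts in any library.

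The libraries hold poly-A RNA of A375 MA2-Luc, an established human melanoma cell line, recovered as lung metastases from NSG mice, an immunodeficient strain. Each mouse had received 250000 cells by retro-orbital injection. The groups were high fat diet without treatment, high fat diet with BRAF-kinase and MEK 1/2 inhibitors, ketogenic diet without treatment, and ketogenic diet with the same inhibitors. Each group had 4 libraries. Inhibitors were gavaged 3 times a week for 5 weeks. The sources used here name neither the compounds and doses nor any vehicle gavage of the untreated groups. The design text calls the libraries biological replicates and also mentions a cultured line, and nothing says that each came from its own mouse. P-values therefore measure the spread between these libraries, which may be technical in part.

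The ER is where secreted and membrane proteins fold. Proteins enter through the Sec61 channel, are held by the chaperones HSPA5 (BiP) and HSP90B1 (GRP94), acquire disulphide bonds from the protein disulphide isomerases, and pass through the calnexin and calreticulin cycle, which reads their sugar chains. Proteins that do not fold are returned to the cytosol and degraded, and those that do leave in COPII-coated vesicles. When unfolded proteins build up, the sensors IRE1 (gene ERN1), PERK (gene EIF2AK3) and ATF6 signal to the nucleus. IRE1 splices the XBP1 messenger, which then encodes an active transcription factor. PERK slows translation while favouring that of ATF4, and ATF6 is cut to release a transcription factor. Gene-level counts do not separate spliced from unspliced XBP1, nor do they show phosphorylation or cleavage of the sensors.

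Several of these genes carry the ER stress response element (ERSE), which reads CCAAT, 9 free bases and CCACG, or its shorter form ERSE-II, which reads ATTGG, 1 free base and CCACG. Both are bound by ATF6 and XBP1 together with the CCAAT-binding factor NF-Y. RefSeq windows (GRCh38.p14) from 250 bases before to 50 bases after the gene start were available for 36 of the 40 genes, and 7 of those had more than 1 window, of which the first listed was read. Both strands were searched. ERSE was found in 7 of the 36 (19.4%), against 22 of the windows of 27305 symbols (0.0806%), and ERSE-II in 3 (8.33%) against 15 (0.0549%). The 2 motifs share the letters CCACG, which alone are in 25 of the 36 windows and in 37.9% of all. These genes are well-known examples of the motifs, and a match describes letters, not binding. The matches are shown because they set apart the subset of the list with a complete element. Each is written 5′ to 3′ on the strand that reads as the motif, with fixed letters in capitals and free spacer letters in lower case.
HSPA5: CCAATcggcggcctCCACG
HSP90B1, distal: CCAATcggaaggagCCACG
HSP90B1, proximal: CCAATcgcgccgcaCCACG
CALR: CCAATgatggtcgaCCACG
CANX: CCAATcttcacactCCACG
ERO1LB: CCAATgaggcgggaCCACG
CRELD2: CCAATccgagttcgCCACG
XBP1: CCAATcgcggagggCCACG
HYOU1, both matches: ATTGGaCCACG
SDF2L1: ATTGGtCCACG
HERPUD1: ATTGGgCCACG
The first base of the match, read along the gene's strand, lay 66 bases before the gene start in HSPA5, 52 in XBP1, 80 in CRELD2, 225 in CALR, 151 in CANX and 243 in ERO1LB. In HSP90B1 the 2 matches lay 194 and 89 bases before it, in HYOU1 185 and 79, in SDF2L1 188 and in HERPUD1 117. The UPR element core TGACGTGG was present in DNAJC10 and HYOU1, 5.56% of the windows against 0.795% of all.

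The bases before the gene start are printed for 4 genes that differ in their pattern across the libraries: CALR, higher on average in every other group than in the untreated high fat one; ERO1LB, lower in those groups; and HSPA5 and HERPUD1, which were not called in any comparison. Only bases outside the gene as annotated in GENCODE 29 (hg38) are given. Each runs 5′ to 3′ on the gene's strand, with the complete ERSE or ERSE-II match in capitals. A match on the other strand appears as its reverse complement.
CALR (chr19:12938359-12938577, plus strand): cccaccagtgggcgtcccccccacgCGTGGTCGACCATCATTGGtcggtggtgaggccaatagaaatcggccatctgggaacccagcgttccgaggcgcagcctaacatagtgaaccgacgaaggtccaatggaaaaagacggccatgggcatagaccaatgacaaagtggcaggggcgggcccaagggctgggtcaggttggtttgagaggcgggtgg
ERO1LB (chr1:236281986-236282208, minus strand): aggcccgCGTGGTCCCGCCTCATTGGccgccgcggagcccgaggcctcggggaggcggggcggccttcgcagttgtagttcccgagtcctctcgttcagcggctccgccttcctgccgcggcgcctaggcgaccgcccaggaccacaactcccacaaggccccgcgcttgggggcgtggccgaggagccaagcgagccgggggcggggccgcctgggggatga
HSPA5 (chr9:125241344-125241593, minus strand): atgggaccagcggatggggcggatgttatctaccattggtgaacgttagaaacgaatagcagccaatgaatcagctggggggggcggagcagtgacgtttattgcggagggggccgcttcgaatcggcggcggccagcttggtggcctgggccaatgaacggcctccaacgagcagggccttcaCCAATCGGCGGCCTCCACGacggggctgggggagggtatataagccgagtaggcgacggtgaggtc
HERPUD1 (chr16:56931892-56932047, plus strand): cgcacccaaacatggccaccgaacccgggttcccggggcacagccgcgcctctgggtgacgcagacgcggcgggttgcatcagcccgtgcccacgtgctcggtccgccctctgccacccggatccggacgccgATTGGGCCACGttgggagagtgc
The element lies near the start in HSPA5 and toward the far end of the window in CALR and ERO1LB. CALR rose in the comparisons in which ERO1LB fell, and each holds a complete ERSE on the opposite strand.

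The libraries held 37099876 to 77251525 estimated counts, of which ribosomal RNA took 4.10 to 50%. That share was highest in the untreated high fat group (21.7 to 50%) and lowest in the ketogenic group with inhibitors (4.10 to 8.37%), so it moved with the groups; it ran from 15 to 20% on the high fat diet with inhibitors and from 15.2 to 33.7% on the untreated ketogenic diet. Levels below are CPM, counts scaled to a common library size after TMM correction, and differences are edgeR log2 fold changes with their standard error (SE), 4 libraries per group. The lineage genes SOX10 and MITF averaged 797.5 and 115.8 CPM. The pigment genes MLANA, TYRP1 and GPR143 stayed under 1 CPM in every library, while PMEL, TYR and DCT reached at most 5.07, 3.94 and 5.39 CPM. All 6 lung epithelial markers and 4 of 6 plasma cell markers, a secretory cell type rich in these ER genes, were under 1 CPM throughout. The 6 plasma cell markers summed to 7.16 to 10.6 CPM in untreated high fat libraries and to 20.4 to 24.9 with inhibitors there, mostly SDC1, and to 12.6 to 32.5 on the untreated ketogenic diet. The 6 leukocyte markers summed to 0.63 to 1.84 CPM, 6.62 to 8.56 CPM and 4.32 to 8.29 CPM in those 3 groups, with CD3E, CD79A and PTPRC under 1 CPM in every library. CORO1A averaged 0.808, 5.28 and 6.05 CPM in the 3 groups and LCP1 0.473, 1.89 and 0.333 CPM. The 5 endothelial markers summed to 16.6 to 35.7 CPM and 71.7 to 82.0 CPM in the untreated and treated high fat groups and to 26.7 to 37.5 CPM on the untreated ketogenic diet, mostly KDR, with CDH5, TEK and VWF under 1 CPM in every library. The part of these markers in the results was not tested. Untreated high fat replicate 4 stood apart before any comparison: it was the highest of its 4 libraries in 33 of the 39 tested genes (84.6%), against 34.2% of all genes, and it had the proliferation gene TOP2A at 34.3 CPM against 261 to 297 in the others. Counts with and without it are given below.

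**Figure D1:**
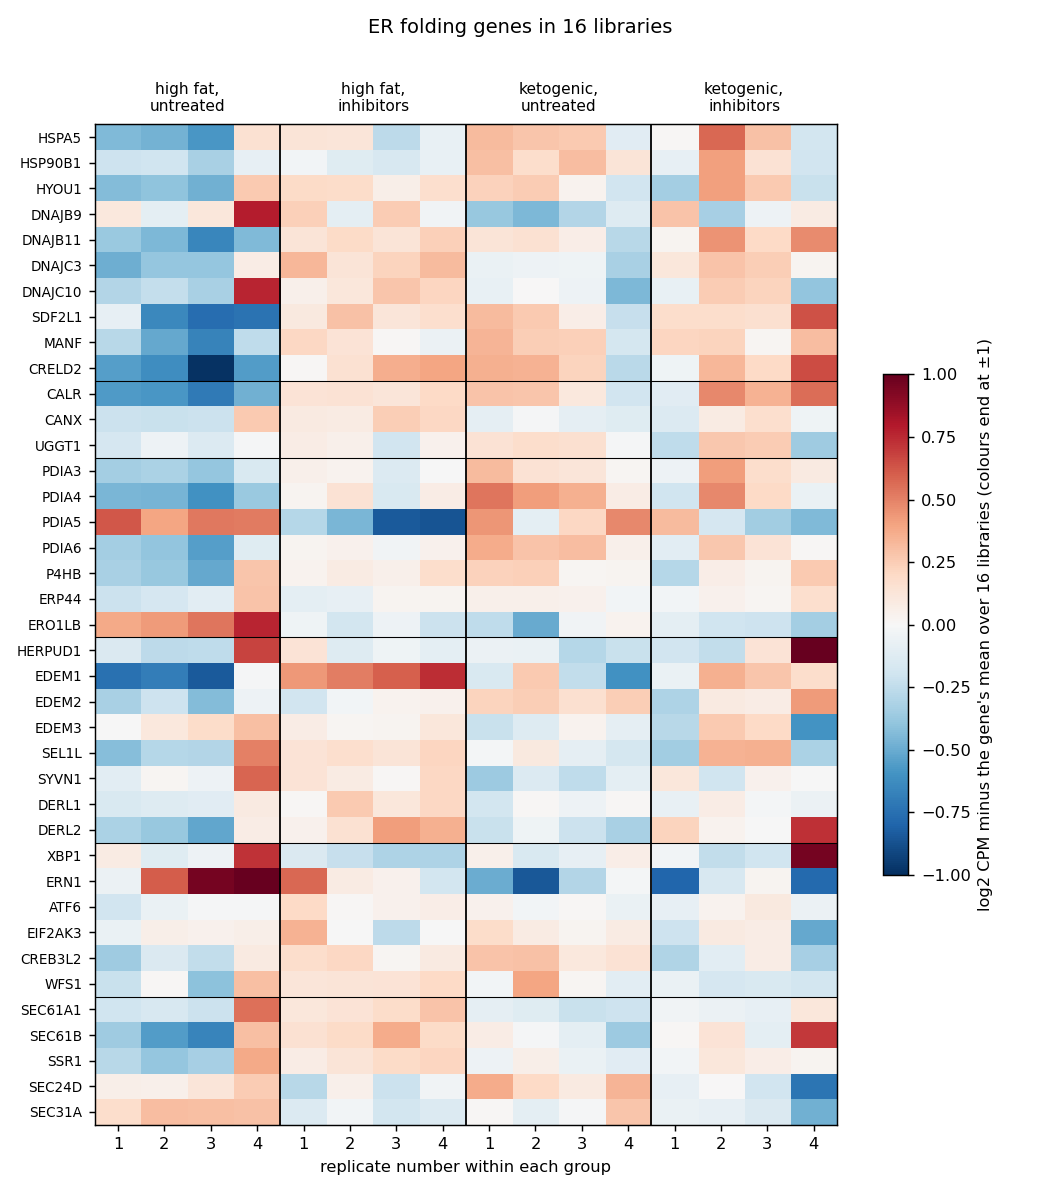
Heat map of 39 ER genes (rows, grouped by role) in 16 libraries (columns, by group and replicate), coloured by log2 CPM minus the gene's mean over the 16 libraries. Untreated high fat replicates 1 to 3 are low (blue) for most chaperones and isomerases, while replicate 4 of that group is higher in most rows.

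The inhibitors on the high fat diet were compared with no treatment. In this comparison 14 of the 39 genes rose (35.9%) and 3 fell (7.69%). Over all 16012 genes tested, 20.6% rose and 21.7% fell, so the rising share was above the background and the falling share below it. The list was chosen with earlier results of these data known, and the background was not matched for expression level. Such shares, here and below, are descriptive and not independent support. The median log2 fold change was 0.23 over the 39 genes and -0.03 over all genes. In bulk RNA a change in the make-up of the cells and a change in RNA per cell cannot be told apart.

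Among the 10 chaperones and their cofactors 5 rose and 0 fell: CRELD2, DNAJB11, SDF2L1, DNAJC3 and MANF. CRELD2 (chromosome 22, 49918167 to 49927540, hg38), a secreted ER protein that binds folding proteins, stood at 22.8, 21.7, 16.8 and 22.6 CPM without treatment and at 33.5, 37, 42.8 and 43.7 with inhibitors. Every treated library was above every untreated one, a 1.87-fold rise (log2 0.90, SE 0.16, adjusted p = 0.000482). DNAJB11 (chromosome 3, 186567403 to 186585800), an Hsp40 partner of HSPA5, was at 56.3, 53.5, 46.5 and 53.7 CPM without and 79.7, 83.1, 79.8 and 86.0 CPM with inhibitors. The groups again did not overlap (log2 0.65, SE 0.11, adjusted p = 0.000400). SDF2L1, which works in the DNAJB11 complex, rose by 0.70 (SE 0.16), DNAJC3 (p58IPK), a cochaperone that also restrains PERK, by 0.53 (SE 0.12), and MANF, a secreted factor that binds HSPA5, by 0.49 (SE 0.12).

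HSPA5 (chromosome 9, 125234853 to 125241330), the central chaperone and the usual readout of the response, did not pass. It was at 646, 631, 586 and 975 CPM without treatment and at 957, 954, 731 and 834 CPM with inhibitors. Untreated replicate 4 lay above all treated libraries, while the other 3 untreated libraries lay below all of them (log2 0.29, SE 0.18, adjusted p = 0.198). Without that library the difference was 0.49 with an adjusted p of 0.0269. The same held for HYOU1, a nucleotide exchange factor of HSPA5 (225.5, 229.9, 217.9 and 364 CPM without, 348, 344, 317 and 342 with inhibitors). HSP90B1, the ER form of Hsp90, was at 1346 to 1591 CPM without and 1513 to 1659 CPM with inhibitors, and the groups overlapped.

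In the lectin cycle, CALR rose and the membrane-bound partner CANX and the folding sensor UGGT1 were not called. CALR (chromosome 19, 12938578 to 12944489), the soluble lectin calreticulin, had 531, 525, 482 and 564 CPM without treatment and 866, 870.2, 855 and 904 CPM with inhibitors. The lowest treated library stood well above the highest untreated one (1.66-fold, log2 0.73, SE 0.14, adjusted p = 0.000622). CANX, the membrane lectin calnexin, was at 547 to 552 CPM in untreated replicates 1 to 3, at 764 CPM in replicate 4 and at 677 to 756 CPM with inhibitors.

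Of the 7 enzymes of disulphide bonding, 3 rose and 2 fell. PDIA4 (log2 0.50, SE 0.14), PDIA6 (0.36, SE 0.11) and PDIA3 (0.28, SE 0.11), the isomerase that works with calnexin and calreticulin, were the 3 that rose. PDIA5 (chromosome 3, 123067062 to 123225227), an isomerase reported to act on ATF6, went the other way, from 32.1, 27.5, 30.1 and 30 CPM to 17.2, 15.2, 11.7 and 11.5 CPM. That is a fall to 0.464 of the untreated level (log2 -1.11, SE 0.17, adjusted p = 0.000189), with no overlap. ERO1LB (chromosome 1, 236215555 to 236281985), the ERO1 oxidase common in secretory tissue, was at 49.4, 50.9, 54.9 and 64.3 CPM without and at 36.7, 33.4, 36.6 and 32.6 CPM with inhibitors (log2 -0.66, SE 0.12, adjusted p = 0.000440). The other oxidase of the family, ERO1A, which was not in the list of 40, rose by 0.40 (SE 0.12). Thus the isomerase members and the oxidase paralogues did not share a direction. P4HB, the founding isomerase, and ERP44, which retains proteins in the early secretory pathway, were not called.

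Of 8 tested genes of ER-associated degradation 3 rose and 0 fell. EDEM1 (chromosome 3, 5187646 to 5219957), a lectin-like protein that trims sugar chains and commits misfolded glycoproteins to degradation, showed the largest rise among the 39 genes in this comparison. Its untreated libraries were at 34.0, 35.3, 31.9 and 56.5 CPM and its treated ones at 76.8, 81.4, 86.0 and 95.0 CPM. The groups did not overlap (2.15-fold, log2 1.10, SE 0.18, adjusted p = 0.000285). The derlins, which form the exit channel, rose less: DERL2 by 0.52 (SE 0.16) and DERL1 by 0.23 (SE 0.08), each with 1 treated library inside the untreated range. EDEM2, EDEM3, the ubiquitin ligase SYVN1 (HRD1), its partner SEL1L and the membrane protein HERPUD1 were not called.

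Among the sensors and transcription factors only CREB3L2 was called, and narrowly. CREB3L2, an ER-bound factor that drives secretory pathway genes, was at 51.9, 60.2, 55.9 and 70.8 CPM without and 75.0, 76.5, 67.1 and 70.8 CPM with inhibitors (log2 0.28, SE 0.11, adjusted p = 0.0472). XBP1 was at 87.0, 75.6, 79.4 and 135 CPM without and 74.3, 70.0, 66.2 and 66.4 CPM with inhibitors, lower in every treated library but not called (log2 -0.45, SE 0.23, adjusted p = 0.127). XBP1 was called when treated ketogenic replicate 4, a library outside this comparison that adds to the shared spread, was left out (adjusted p = 0.0177). ERN1, with 103 to 448 estimated counts per library, was at 2.95, 4.68, 5.96 and 7.84 CPM without and 4.58, 3.26, 3.16 and 2.70 CPM with inhibitors (log2 -0.64, SE 0.29, adjusted p = 0.0786). The untreated spread of ERN1 covered most of the treated range. ATF6 stood at 65.4, 71.4, 74.1 and 74.0 CPM without and 85.8, 75.2, 76.9 and 78.3 CPM with inhibitors, a small difference (log2 0.15, SE 0.08, adjusted p = 0.117). EIF2AK3 was at 22.4, 24.3, 24.1 and 24.4 CPM without and 29.8, 23.3, 19.5 and 23.3 CPM with inhibitors. Messenger levels of the sensors thus showed no call for ERN1, ATF6 or EIF2AK3. WFS1, an ER membrane protein that limits ATF6 signalling, was not called either.

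At the entry and exit of the ER, SEC61B, a small subunit of the translocon, was called at the threshold (log2 0.50, SE 0.19, adjusted p = 0.0498), with 28.9 to 56.0 CPM without and 50.7 to 58.9 CPM with inhibitors. SEC31A (chromosome 4, 82818661 to 82901166), of the outer COPII coat, fell from 69.7, 76.2, 75.8 and 75.7 CPM to 56.0, 60.4, 54.4 and 56.0 CPM (log2 -0.39, SE 0.10, adjusted p = 0.00540). The channel subunit SEC61A1, the translocon partner SSR1 and the cargo adaptor SEC24D were not called.

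**Figure D2:**
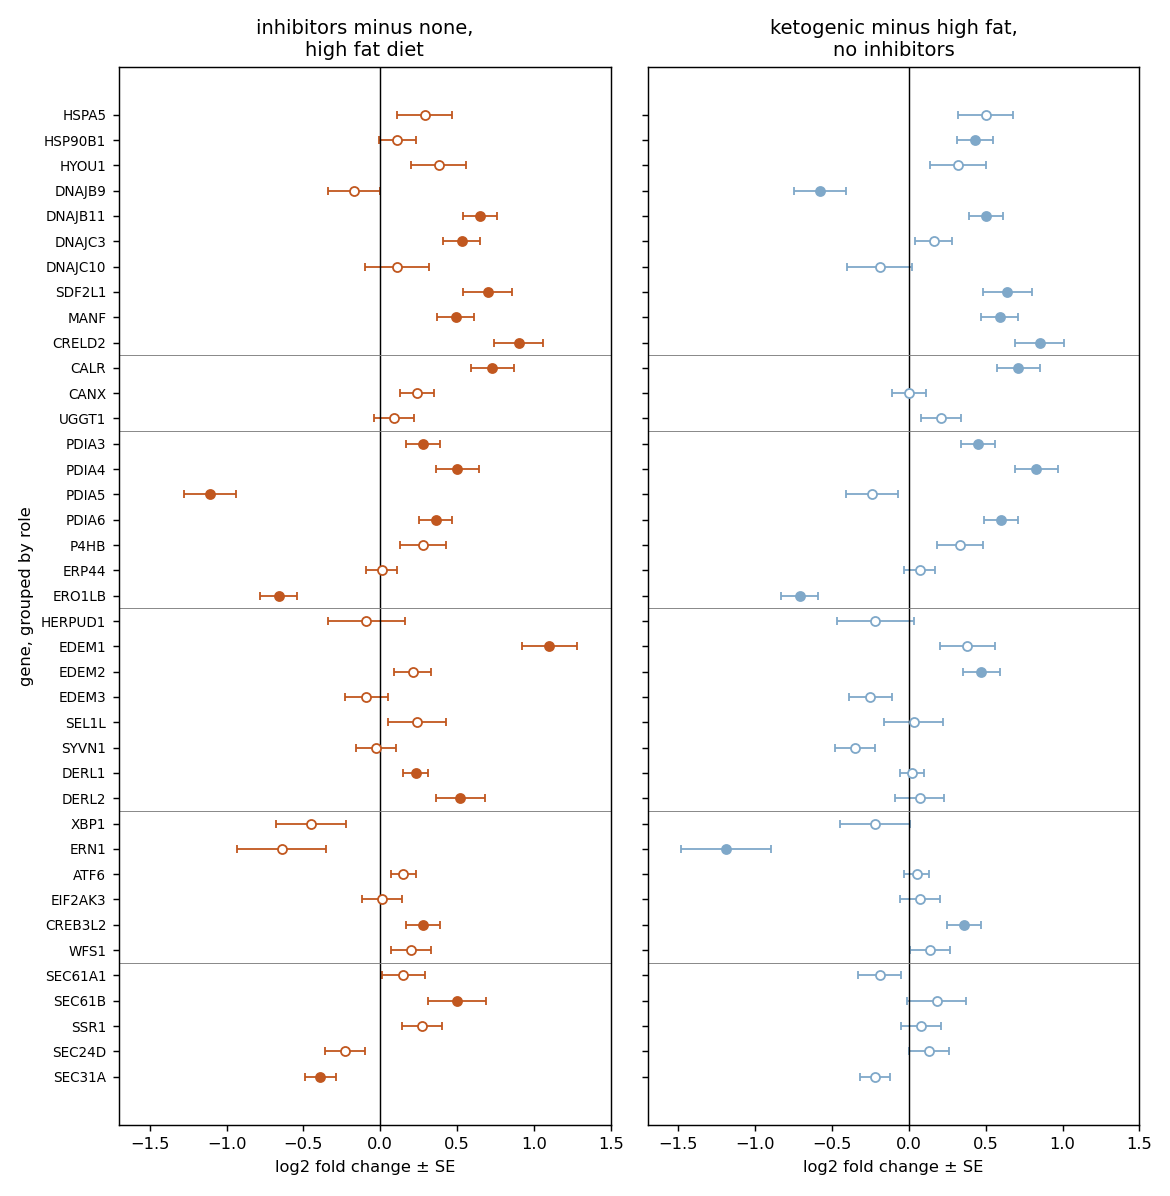
Log2 fold change ± SE of 39 ER genes for inhibitors against none on the high fat diet (left) and ketogenic against high fat diet without inhibitors (right); filled points passed the edgeR test at an adjusted p under 0.05, and the 2 panels share the untreated high fat libraries. EDEM1 has the highest value on the left (1.10) and PDIA5 the lowest (-1.11), and ERN1 the lowest on the right (-1.19).

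Single libraries moved this count. Refit counts, here and below, stand without the share of all genes called in the same fit. They do not show whether a shift was particular to these genes. Without untreated replicate 4, 23 of the 39 rose and 3 fell, the added genes being HSPA5, HYOU1, DNAJC10, CANX, P4HB, SEL1L, SEC61A1, SSR1 and WFS1. In that fit the median of the 39 was 0.37, against -0.02 over all genes. Without untreated replicate 3, which had the highest ribosomal RNA share, 9 rose, and without the 3 libraries over 30% ribosomal RNA, 2 of them untreated high fat, 4 rose (EDEM1, CALR, DNAJB11 and CRELD2) and 2 fell (PDIA5 and ERO1LB). CREB3L2 and SEC61B each lost their call in 12 of 16 fits that left out 1 library, PDIA3 in 9, DERL1 in 6 and PDIA6 in 1. Without the 3 libraries over 30% ribosomal RNA the median of the 39 was 0.07, against -0.04 over all genes. With the share of ribosomal RNA as covariate 8 rose and 4 fell, and the calls of PDIA3, PDIA6, DERL1, DERL2, SEC61B and CREB3L2 were lost. With ribosomal RNA genes removed before scaling 14 rose and 3 fell.

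Other genes of the same pathways, from lists named alongside the 40, gave the following counts in the same comparison, to be read against the 20.6% of all genes that rose and the 21.7% that fell. Of 28 tested further degradation genes 11 rose (39.3%) and 3 fell, with a median of 0.18. VCP, the ATPase that pulls proteins out of the ER, rose from 217 to 433 CPM (log2 0.99, SE 0.14) and its cofactor UFD1L from 19.2 to 42.3 CPM (log2 1.14, SE 0.16). Of 40 further chaperones and oxidoreductases 10 rose (25%) and 12 fell, with a median of 0.02 against -0.03 over all genes. TMX4, a membrane-bound thioredoxin-like protein, rose by 1.21 (SE 0.12), and KDELR3, a receptor that returns chaperones to the ER, fell by 1.10 (SE 0.18). Of 36 genes of glycosylation and translocation 10 rose (27.8%) and 4 fell, and of 32 COPII and ER-Golgi genes 4 rose (12.5%) and 5 fell. Of 26 other stress sensors, proteases and factors 8 rose (30.8%) and 4 fell. Of 16 outputs of PERK and ATF4 only 2 rose, ATF5 (log2 1.48, SE 0.20) and VLDLR (log2 0.97, SE 0.36), and EIF4EBP1 fell (log2 -0.45, SE 0.13). Untreated high fat replicate 4 was the highest of its group in 14 of these 16 outputs.

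On the ketogenic diet, the same inhibitors gave 0 calls in edgeR among the 39 genes, with 0.856% of all genes called higher and 0.887% called lower. At an unadjusted edgeR p under 0.05 there were 7 of the 39, a share near that of all genes (2995 of 16012). Other fits called 2 (DESeq2), 2 (library size alone) or 4 (limma voom with quality weights). The median over the 39 was 0.02 and over all genes 0.01. DERL2 stood at 29, 32.7, 29.1 and 27.0 CPM without and at 39.3, 34.5, 33.6 and 55.9 CPM with inhibitors (log2 0.47, SE 0.16, adjusted p = 0.130). All 4 treated libraries were above the untreated ones. DNAJC3 also showed no overlap, from 61.3 to 74.6 CPM without to 78.2 to 93.9 CPM with inhibitors (log2 0.29, SE 0.12, adjusted p = 0.195). Of the further lists, only the PERK and ATF4 outputs held calls: 2 of 16 rose (12.5%). They were ATF5 (log2 0.83, SE 0.19, edgeR adjusted p = 0.0389) and NUPR1 (log2 4.19, SE 0.92, edgeR adjusted p = 0.0334). NUPR1 had 1 to 14 estimated counts without and 31 to 375 with inhibitors, highest in treated replicate 4.

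In the other direction, SEC24D, the COPII cargo adaptor, was at 61.6, 54.8, 50.9 and 60.5 CPM without and 45.1, 47.9, 41.9 and 28.7 CPM with inhibitors (log2 -0.48, SE 0.13, adjusted p = 0.0742). CREB3L2 was at 80.7, 81.3, 71.3 and 73.5 CPM without and 53.9, 61.7, 69.7 and 52.7 CPM with inhibitors (log2 -0.37, SE 0.11, adjusted p = 0.0891). Neither gene's groups overlapped, and neither passed. The adjustment runs over all genes, of which 279 were called here and 6771 on the high fat diet, so it was stricter here. In edgeR, CREB3L2 had an unadjusted p of 0.00337 here without a call and of 0.0197 on the high fat diet with a call. Counts of calls therefore do not compare the diets on equal terms. Of the genes that rose on the high fat diet, CALR was at 689 to 958 CPM in untreated ketogenic libraries and 729 to 1158 CPM with inhibitors, and CRELD2 at 27.6 to 42.7 and 32.4 to 52.5 CPM. The highest 3 treated libraries of CALR lay above every untreated one and the lowest lay among them (log2 0.21, SE 0.13, adjusted p = 0.426). For CRELD2, 1 treated library lay above the untreated range (log2 0.12, SE 0.16, adjusted p = 0.724).

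The diets were next compared without inhibitors, ketogenic against high fat, using the same 4 untreated high fat libraries as the first comparison, so the results of both move together with those libraries. Here 11 of the 39 rose (28.2%) and 3 fell (7.69%), against 7.99% and 5.51% of all genes. The median was 0.13 over the 39 genes and -0.02 over all. Of the chaperones 5 rose and 1 fell, of the disulphide enzymes 3 rose and 1 fell, and 0 of the 5 entry and exit genes were called.

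PDIA4 (chromosome 7, 149003062 to 149028641), an isomerase with extra thioredoxin domains, had 261, 259.6, 235 and 277 CPM on the high fat diet and 518, 479, 459 and 376 CPM on the ketogenic diet. The lowest ketogenic library lay above every high fat one (1.77-fold, log2 0.83, SE 0.14, adjusted p = 0.00296). PDIA6 (chromosome 2, 10783391 to 10837977), an isomerase that binds HSPA5 and attenuates IRE1, went from 401, 387, 346 and 466 CPM to 655, 617, 628 and 526.5 CPM (log2 0.60, SE 0.11, adjusted p = 0.00444). CRELD2 was at 42.7, 42.4, 38.8 and 27.6 CPM on the ketogenic diet (log2 0.85, SE 0.16, adjusted p = 0.00512) and CALR at 958, 952.5, 846.5 and 689 CPM (log2 0.71, SE 0.14, adjusted p = 0.00524). In CRELD2, CALR, PDIA4 and PDIA6 alike, ketogenic replicate 4 was the lowest of its group and still above all high fat libraries.

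SDF2L1 (log2 0.64, SE 0.16), MANF (0.59, SE 0.12), DNAJB11 (0.50, SE 0.11), EDEM2 (0.47, SE 0.12), PDIA3 (0.45, SE 0.11), HSP90B1 (0.43, SE 0.12) and CREB3L2 (0.36, SE 0.11) made up the rest of the 11. EDEM1 was at 51.3, 68.3, 48.0 and 37.5 CPM on the ketogenic diet, overlapping the high fat range. HSPA5 was at 1090.3, 1063, 1053.5 and 813 CPM, above high fat replicates 1 to 3 and, in 3 libraries, above replicate 4 as well (log2 0.50, SE 0.18, adjusted p = 0.0701). Without high fat replicate 4 it was called (log2 0.69, adjusted p = 0.0158).

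Among the falls, ERO1LB went to 31.8, 26.7, 36.9 and 38.8 CPM from 49.4 to 64.3 CPM (log2 -0.71, SE 0.12, adjusted p = 0.00259). ERN1, the IRE1 sensor, was at 2.18, 1.71, 2.51 and 3.03 CPM against 2.95 to 7.84 CPM (log2 -1.19, SE 0.29, adjusted p = 0.0150), with the lowest high fat library inside the ketogenic range. DNAJB9 (chromosome 7, 108569568 to 108574850), a cochaperone that restrains IRE1 and promotes degradation, was at 17.1, 16.3, 18.1 and 20.3 CPM against 23.9, 20.8, 24.0 and 38.2 CPM (log2 -0.58, SE 0.17, adjusted p = 0.0356). DNAJB9 and ERN1 were highest in untreated high fat replicate 4, and without that library DNAJB9 was no longer called. Of 16 fits that left out 1 library, the call was lost in 5 for DNAJB9 (also without high fat replicate 3 or ketogenic replicate 1, 2 or 3) and in 2 for ERN1 (without ketogenic replicate 1 or 2). Among the rises it was lost in 6 for HSP90B1, 5 for CREB3L2, 4 for EDEM2, 3 for SDF2L1 and 1 for PDIA3, each time without a library of the untreated groups. The falling members of this comparison were an oxidase, a sensor and a cochaperone, and PDIA5, which fell with inhibitors on the high fat diet, was not among them.

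The rising count was 6 without untreated ketogenic replicate 1, 7 without ketogenic replicate 2, 7 without high fat replicate 3 and 17 without high fat replicate 4. Without the 3 libraries over 30% ribosomal RNA no gene of the 39 was called, in edgeR with 2 high fat and 3 ketogenic libraries left, and the median of the 39 moved from 0.13 to 0.00, against -0.03 over all genes. The log2 fold change was then 0.73 for PDIA4 (adjusted p = 0.103), 0.67 for CRELD2 (adjusted p = 0.140), 0.43 for SDF2L1, 0.41 for MANF and 0.38 for DNAJB11. With the share of ribosomal RNA as covariate 9 rose and 3 fell. Of the further lists, with 7.99% of all genes rising and 5.51% falling, 4 of 28 degradation genes rose and 0 fell, 5 of 40 chaperones rose and 2 fell, and 1 of 16 ATF4 outputs rose and 1 fell. PRDX4, an ER peroxiredoxin that oxidises isomerases, rose from 46.5 to 91.7 CPM (log2 0.98, SE 0.19).

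**Figure D3:**
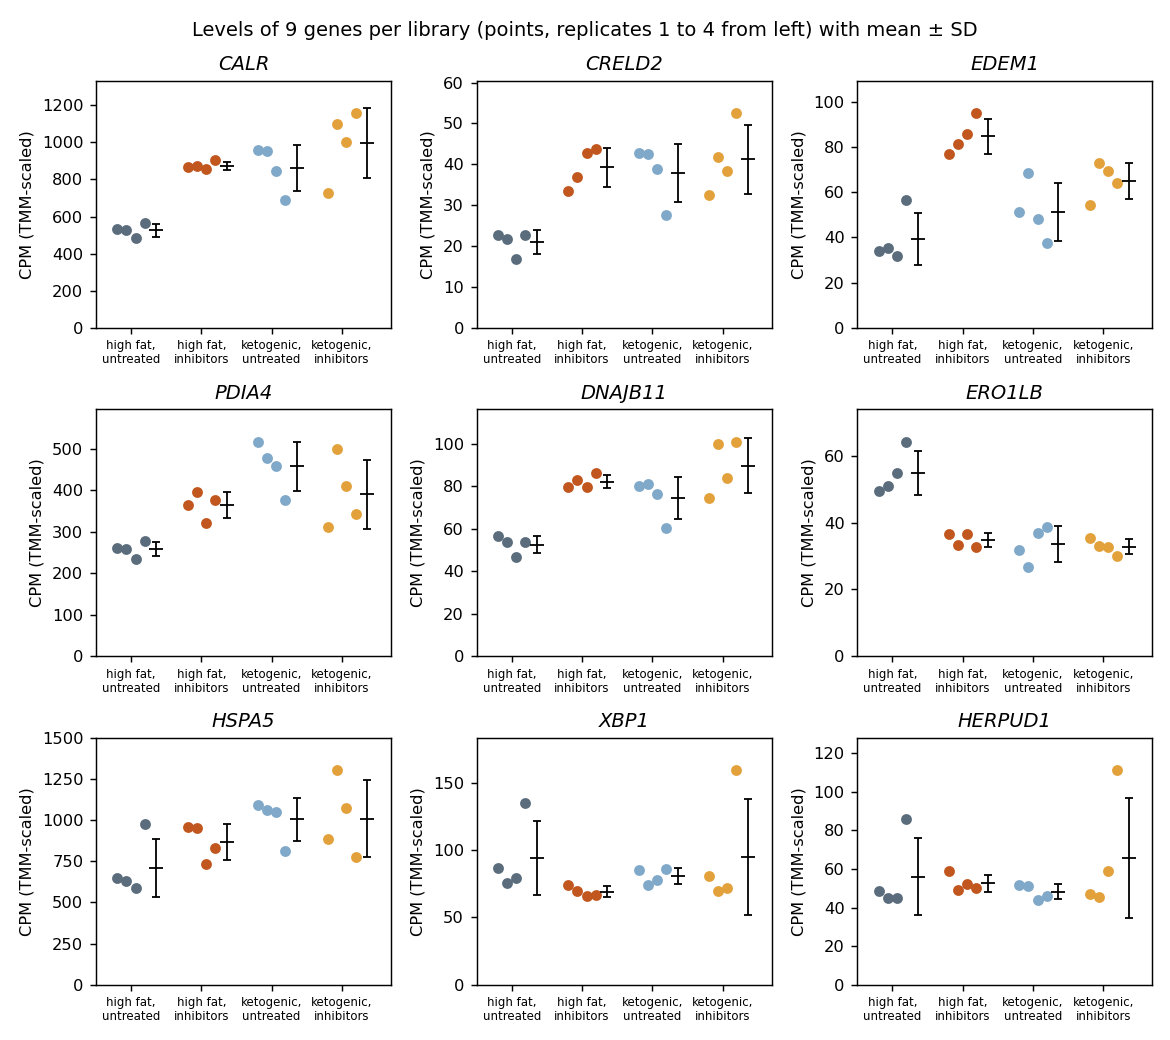
CPM of 9 ER genes in each library (points, replicates 1 to 4 from left in each group) with the group mean ± SD, n = 4 libraries, on linear axes from 0. CALR, CRELD2, PDIA4 and DNAJB11 are lowest in the untreated high fat group and ERO1LB is highest there, while XBP1 and HERPUD1 each have 1 high library in 2 of the groups.

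With inhibitors, the diets differed in 0 of the 39 genes in edgeR, where 0.05% of all genes were called higher and 0.119% lower. At an unadjusted edgeR p under 0.05 there were 3 of the 39, a share below that of all genes (2032 of 16012). A fit with limma voom and quality weights called 4. PDIA5 was at 17.2, 15.2, 11.7 and 11.5 CPM on the high fat diet and 26.0, 18.6, 16.4 and 15.4 CPM on the ketogenic diet (log2 0.46, SE 0.17, adjusted p = 0.272). WFS1 was at 22 to 23.2 CPM and 17.8 to 19.3 CPM (log2 -0.29, SE 0.13, adjusted p = 0.384), and CREB3L2 at 67.1 to 76.5 and 52.7 to 69.7 CPM (log2 -0.28, SE 0.11, adjusted p = 0.281). Of these 3, only WFS1 had groups that did not overlap. The groups of EDEM1 did not overlap either. It was at 76.8 to 95.0 CPM on the high fat diet and 54.4 to 72.8 CPM on the ketogenic diet (log2 -0.38, SE 0.18, edgeR adjusted p = 0.396). In simulated counts this comparison recovered 65% of genes changed 2-fold and 29% of those changed 1.5-fold. The 200 changed genes were drawn from all genes tested, so these rates are not those of the 39. Recovery also depends on how many genes change, and in the data 27 were called in this comparison. A gene without a call is not read as unchanged.

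The inhibitor effect was then compared between the diets, as the effect on the ketogenic diet minus that on the high fat diet. In 5 of the 39 genes it differed, 1 higher (2.56%) and 4 lower (10.3%), against 4.36% and 4.66% of all genes. The 4 lower ones were CRELD2 (log2 -0.78, SE 0.23, adjusted p = 0.0421), PDIA4 (-0.73, SE 0.19, adjusted p = 0.0318), CREB3L2 (-0.64, SE 0.15, adjusted p = 0.0216) and PDIA6 (-0.54, SE 0.16, adjusted p = 0.0421). ERO1LB was the higher one (log2 0.63, SE 0.16, adjusted p = 0.0307). ERO1LB levels were 32.8 ± 2.23 CPM (SD, n = 4) with inhibitors and 33.5 ± 5.46 without on the ketogenic diet, against 34.8 ± 2.14 and 54.9 ± 6.73 on the high fat diet. So 3 of its group means were close and the untreated high fat mean was apart.

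CREB3L2 showed a crossed pattern: its mean was 59.7 ± 8.12 CPM without and 72.4 ± 4.26 with inhibitors in the high fat groups, and 76.7 ± 5.07 without and 59.5 ± 7.89 with inhibitors on the ketogenic diet. PDIA4 was at 365 ± 31.9 and 391 ± 83.4 CPM in the treated groups and at 258 ± 17.2 and 458 ± 59.7 CPM in the untreated ones. EDEM1 (log2 -0.76, SE 0.26, adjusted p = 0.0701) and CALR (-0.52, SE 0.19, adjusted p = 0.0883) did not pass. The calls depended on single libraries: CRELD2 lost its call in 12 of 16 fits that left out 1 library, PDIA6 in 11, PDIA4 in 8, ERO1LB in 6 and CREB3L2 in 3. None of the 39 was called in edgeR without untreated high fat replicate 3, without untreated ketogenic replicate 1 or 2, or with the share of ribosomal RNA as covariate. There were 1 to 3 calls without untreated high fat replicate 1 or 2, treated high fat replicate 2, 3 or 4, untreated ketogenic replicate 3 or treated ketogenic replicate 1. There were 9 or 10 without untreated high fat replicate 4, untreated ketogenic replicate 4 or treated ketogenic replicate 4.

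Across the 4 groups, the untreated high fat group had the lowest mean in 24 of the 39 genes (61.5%), against 34.0% of all genes, and the highest in 7 (17.9%, against 37.6%). The treated high fat group was lowest in 2, the untreated ketogenic group in 7 and the treated ketogenic group in 6. Summed over the list, the libraries of the untreated high fat group held 6799, 6774, 6388 and 8753 CPM, those with inhibitors 8761, 8697, 8289.5 and 8817, those of the untreated ketogenic group 9739.6, 9438, 9212 and 8204, and those with inhibitors there 7806, 10397, 9360.2 and 8683. The 3 lowest sums were thus untreated high fat replicates 1 to 3, and replicate 4 of that group fell within the range of the other groups. The most abundant genes, such as HSP90B1, weigh most in these sums.

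The genes with a complete ERSE or ERSE-II were not all called in the same direction. They are few, and their counts are not read as a result about the motif. With inhibitors on the high fat diet, 2 of the 7 ERSE genes rose (CALR and CRELD2), 1 fell (ERO1LB) and 4 were not called. Over all genes 20.6% rose and 21.7% fell. Between diets without inhibitors 3 rose (HSP90B1, CALR and CRELD2), 1 fell (ERO1LB) and 3 were not called. Over all genes 7.99% rose and 5.51% fell there. Of the 3 ERSE-II genes SDF2L1 rose in each of these comparisons, and HYOU1 and HERPUD1 were not called in either.

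The spread within groups was carried by few libraries. Untreated high fat replicate 4 had a median log2 difference of 0.34 from its group's other 3 libraries over the 39 genes, and the gene most above them was DNAJC10 (1.05), an ER reductase, at 120.3 CPM against 56.9 to 60.3. HERPUD1 stood at 85.9 CPM there against 44.7 to 48.7, SEC61A1 at 461 against 271 to 282, and SSR1 at 133 against 78.4 to 84.4. The higher genes included chaperones, degradation genes and translocon genes, and the lowest difference was that of SDF2L1 (-0.10). CRELD2, CALR, PDIA4 and DNAJB11 in this library stayed below every treated high fat library.

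**Figure D4:**
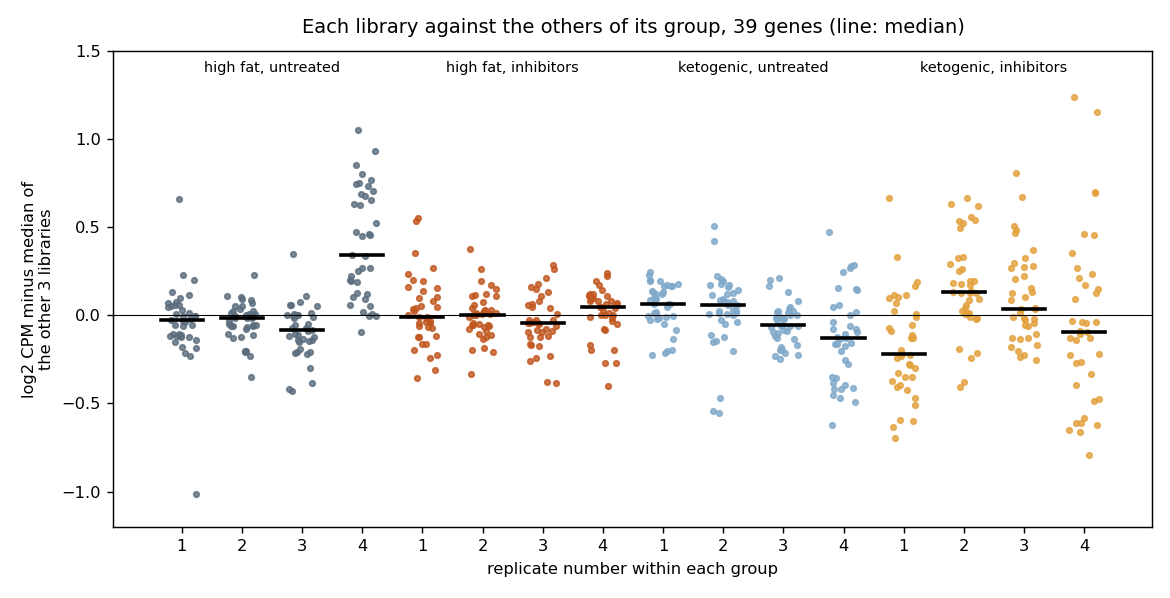
For each library, the log2 CPM of 39 ER genes minus the median of the other 3 libraries of its group (points; bar, median over the genes). Untreated high fat replicate 4 has the highest median (0.34) and treated ketogenic replicate 1 the lowest (-0.22).

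Treated ketogenic replicate 4 differed in another way. It was the highest of its group in 13 of the 39 genes and the lowest in 13 (33.3% each), against 34.2% and 30.4% of all genes, with a median difference of -0.09. XBP1 stood at 159.6 CPM against 69.3 to 80.5 in the other 3 libraries, HERPUD1 at 111 against 45.4 to 59.0 and SDF2L1 at 30.9 against 22.2 to 22.5, while HSPA5 was at 774 against 885 to 1305.5, EIF2AK3 at 16.4 against 20.3 to 24.9 and EDEM3 at 64.6 against 80.8 to 117. The XBP1 and HERPUD1 messengers were thus high in a library where HSPA5 was lowest of its group.

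Both libraries were also high in the outputs of PERK and ATF4, for which untreated high fat replicate 4 was the highest of its group in 14 of 16 genes and treated ketogenic replicate 4 in 15 of 16. DDIT3, which encodes the stress factor CHOP, was at 182 CPM in treated ketogenic replicate 4 against 15 to 17.5 in the rest of its group, and at 59.6 against 24.8 to 29.6 in untreated high fat replicate 4. TRIB3, a pseudokinase induced by ATF4, was at 198.5 against 24.5 to 33.0 CPM and at 123 against 27.4 to 31.9 CPM in the same order. ASNS, the asparagine synthetase, was at 197 against 35.5 to 46.3 CPM and at 344 against 47.2 to 54.6 CPM. For DDIT3 and TRIB3 the ketogenic library was the higher of the pair, and for ASNS the high fat library was. The 2 libraries share a replicate number but differ in diet and treatment, and their part in the results is given by the fits without them. Leaving out both, an alternative chosen after the values were seen, gave 24 rising and 4 falling genes for inhibitors on the high fat diet, 1 rising gene on the ketogenic diet (DNAJC3), 19 rising and 2 falling genes between the diets without inhibitors and, for the difference of effects, 2 higher and 12 lower.

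**Figure D5:**
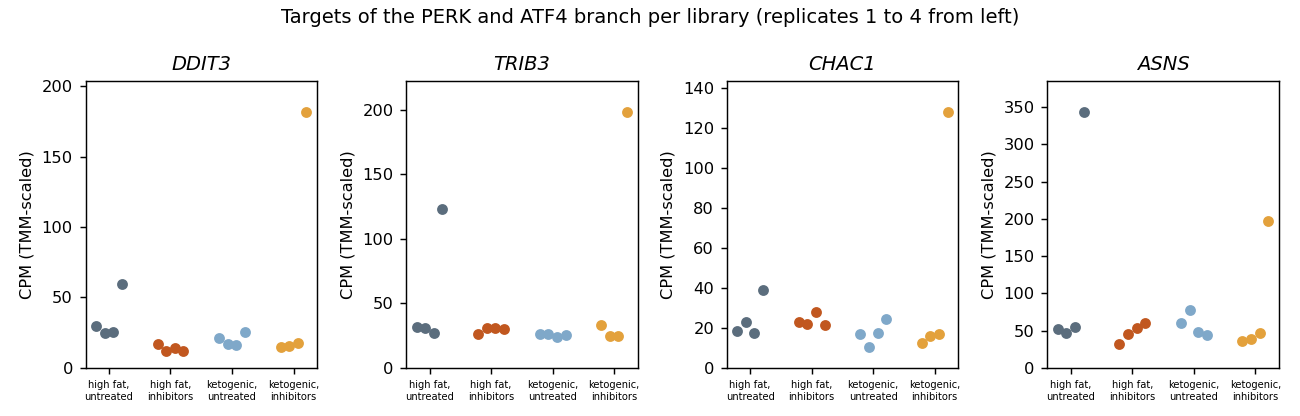
CPM of DDIT3, TRIB3, CHAC1 and ASNS in each library (points, replicates 1 to 4 from left in each group), on linear axes from 0. Treated ketogenic replicate 4 is highest for DDIT3 (182), TRIB3 (198.5) and CHAC1 (128), and untreated high fat replicate 4 for ASNS (344).

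Several of the genes overlap others on the opposite strand, and no source used here states the strand setting of the counting. CRELD2 overlaps exons of ALG12, DNAJB11 those of TBCCD1, DERL2 those of MIS12, SEC31A those of THAP9, PDIA3 those of ELL3, PDIA6 those of ATP6V1C2, DERL1 those of TBC1D31, DNAJB9 those of PNPLA8 and THAP5, and HSP90B1 those of C12orf73 and TTC41P. PDIA5 overlaps exons of SEC22A on its own strand. Reads of these pairs may not be fully separated. HSP90B1 and PDIA3 also have near-identical pseudogene copies, among which estimated counts can be split, and their values are uncertain to that extent.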

How the data were processed

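Poly-A RNA-seq of 16 libraries, 4 in each of 4 groups, was used as 1 table of gene-level expected counts deposited by the authors. Per the submitters' processing notes, Bowtie2 2.1.0, RSEM 1.2.15 and hg38 were used. The sources used here do not state which annotation or strand setting was chosen, nor whether mouse reads were removed. Expected counts were rounded (13% were not whole). Genes were filtered with filterByExpr, leaving 16012 of 26475. TMM scaling and edgeR 4.0.16 (R 4.3.3) robust quasi-likelihood tests followed, in 1 model of the 4 group means over all 16 libraries, two-sided, with Benjamini-Hochberg adjustment over all genes tested and a threshold of 0.05. The common biological coefficient of variation was 0.228. CPM values are on TMM-scaled library sizes and are not corrected for length, so levels of different genes were not compared. The sums over the list mix genes and are weighted towards long and abundant ones. Library totals were 37099876 to 77251525 estimated counts.

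The 40 genes and the other lists were chosen with earlier results of these data known. Any of the 40 could be named. Values in every library of a comparison, though not of all comparisons, were given for HSPA5, XBP1, ERN1, ATF6, EIF2AK3 and CREB3L2. The same was done for the 4 called genes with the smallest p in each direction of a comparison. Other genes given by library were chosen after their values were seen, as were ERO1A, PRDX4 and the stress genes of the libraries that stand apart. From each other list up to 2 called genes per comparison could be named. The fit was tested on simulated data. Alternatives were DESeq2 1.42.0, limma 3.58.1 voom, other scalings and filters, a ribosomal RNA covariate, a replicate block, a 1.5-fold minimum and fits without single libraries.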

Additional observations from a re-analysis of the deposited data

Results flagged for a closer look

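In each of 156 groups of 4 values (39 genes in 4 groups) the highest or lowest library was compared with the other 3, and 23 stood far from the rest for the size of their group's range. Chance alone gives about 1 in 20, or about 8 here. Of the 23, 12 were in untreated high fat replicate 4, each time as the highest. There HSPA5 was at 974.8 CPM against 586 to 646 in the other 3 libraries, CANX at 764 against 547 to 552, HYOU1 at 364 against 218 to 229.9, and SEC61A1 at 461 against 271 to 282. DNAJC10 was at 120.3 against 56.9 to 60.3, SSR1 at 133 against 78.4 to 84.4, SEL1L at 91.6 against 48.1 to 52.9, and HERPUD1 at 85.9 against 44.7 to 48.7. SYVN1 was at 82.3 against 51.1 to 55.6, DNAJC3 at 81.1 against 54.8 to 58.9, DERL1 at 67.1 against 56.7 to 58.0, and EDEM1 at 56.5 against 31.9 to 35.3.

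Untreated ketogenic replicate 4 was the lowest of its group for HSPA5 (813 CPM against 1053.5 to 1090.3), ERP44 (79.8 against 83.8 to 84.2) and DNAJC3 (61.3 against 73.5 to 74.6). Treated ketogenic replicate 4 was the highest for XBP1 (159.6 CPM against 69.3 to 80.5) and SDF2L1 (30.9 against 22.2 to 22.5). Untreated high fat replicate 1 was the highest for SDF2L1 (18.8 CPM against 11.7 to 12.7) and the lowest for EIF2AK3 (22.4 against 24.1 to 24.4) and SEC31A (69.7 against 75.7 to 76.2). Treated high fat replicate 3 was the lowest for PDIA6 (495 CPM against 518 to 522) and UGGT1 (109.7 against 129 to 132), and the highest for SEC61B (58.9 against 50.7 to 52.1).

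The inhibitor effect on the ketogenic diet minus that on the high fat diet passed the edgeR interaction test for CRELD2 (log2 -0.78), PDIA4 (-0.73), CREB3L2 (-0.64), PDIA6 (-0.54) and ERO1LB (0.63).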

How the results depend on the processing

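No gene of the 39 that was called reversed its direction under any setting run. The counts below are not set against the share of all genes called under the same setting. For inhibitors on the high fat diet the edgeR count of 17 became 2 with a 1.5-fold minimum, 29 with limma voom and quality weights, 6 without the libraries over 30% ribosomal RNA, 28 without the 2 libraries that stand apart (chosen after seeing the data), and 12 to 26 without single libraries. On the ketogenic diet the count of 0 became 2 with DESeq2, 2 with library size alone, 4 with voom, 1 without the 2 libraries and 0 to 1 without single libraries. Between diets without inhibitors the count of 14 became 0 with the 1.5-fold minimum, 26 with voom, 0 without the libraries over 30% ribosomal RNA and 7 to 19 without single libraries (21 without the 2 libraries). Between diets with inhibitors the count of 0 became 4 with voom and stayed 0 without single libraries. For the difference of effects the count of 5 became 0 with the 1.5-fold minimum, 0 with library size alone, 0 with the ribosomal RNA covariate, 0 without the libraries over 30% ribosomal RNA, 19 with voom, 14 without the 2 libraries and 0 to 10 without single libraries. The cause was not tested. Library size alone moved the median of all genes to 0.25, 0.28, 0.15 and 0.19 in the first 4 comparisons, with 20 genes of the 39 higher and 1 lower in the first.

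Same-numbered libraries did not deviate together: 4 of 24 pairs had a correlation over 0.1 (median 0.017, range -0.153 to 0.207). With the replicate block the counts were 15, 0, 14, 0 and 4. In simulated counts, 2-fold changes were recovered in 61, 66, 62, 65 and 35% of cases and 1.5-fold changes in 24, 22, 29, 29 and 8%, in the order of the comparisons above. Each simulation changed 200 genes, whereas 6771, 279, 2163, 27 and 1444 were called in the data. Recovery depends on how many genes change, so these rates need not hold for the data.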
